A study of Rattus norvegicus with 9 samples.

Results

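The immunoproteasome and the MHC class I loading machinery were followed through 9 genes, namely Psmb8, Psmb9, Psmb10, Psme1, Psme2, Tap1, Tap2, Tapbp, and B2m. They were chosen by name from the known parts of the pathway, with earlier results of these data known. The arrays held 19293 genes with a symbol, of which 15596 had a probe that could be tested. Each of the 9 genes had 1 probe, and each probe was well above background on all 9 arrays, so that 9 of the 9 passed the filter on dim probes.

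Gene expression had been profiled in male Sprague Dawley rats with one-color Agilent arrays, 3 per group. The Sham rats were operated on without a filament and received solvent by tail vein. In the I/R rats a filament closed the middle cerebral artery on the right side for 2 h before reperfusion, and the methods do not say what these rats were injected with. The DHI rats underwent the same occlusion and reperfusion and received Danhong injection (DHI), an herbal preparation, by tail vein each day until tissue was taken. Tissue was taken from the infarcted hemisphere on day 14, and the methods give a body weight but no age. Rats with a neurological deficit below a set score were not counted as modeled. The hemisphere is a mixture of cells, so that fewer cells of a type and less RNA per cell cannot be told apart. Markers of neurons, astrocytes, and oligodendrocytes were well above background on all Sham arrays.

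Cells show fragments of their own proteins on MHC class I molecules. The proteasome cuts proteins into peptides, and interferon replaces its constitutive catalytic subunits Psmb5, Psmb6, and Psmb7 with the immune subunits Psmb8, Psmb9, and Psmb10, and adds the activator built from Psme1 and Psme2. The Tap1 and Tap2 transporter carries the peptides into the endoplasmic reticulum, where tapasin (Tapbp) places them on a heavy chain paired with B2m. In the brain, microglia and blood vessels are known to carry class I molecules, and neurons few of them.

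Several members lie beside each other in the rat genome. Tap2, Psmb8, Tap1, and Psmb9 follow one another on chromosome 20 with no other listed gene between them, Tapbp lies on the same chromosome, and Psme1 and Psme2 lie on chromosome 15 with 1 gene, Emc9, between them (RefSeq, GRCr8). B2m is on chromosome 3 and Psmb10 on chromosome 19. Tap1 and Psmb9 are read in opposite directions from start sites 457 bases apart.

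What the promoters share was searched for by sequence. The windows were those of RefSeq, 250 bases before to 50 bases after each start (GRCr8), and the core of the interferon response element, which interferon regulatory factors bind, was looked for on both strands, spelled as GAAA, any 2 bases, and GAAA. It stood in 7 of the 9 member promoters, against 3.92% of all 33469 promoters of that length and 0 of the 3 promoters of Psmb5, Psmb6, and Psmb7. Psmb9 and Psme1 had no match in this window. The 7 promoters are shown as the 60 bases around each match, with the match in capitals. Psmb10 had 2 separate matches and Tapbp had 2 that overlap.
B2m, chr3:129549155-129549214, plus strand: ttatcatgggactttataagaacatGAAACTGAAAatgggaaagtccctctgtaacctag
Tap1, chr20:4668630-4668689, minus strand: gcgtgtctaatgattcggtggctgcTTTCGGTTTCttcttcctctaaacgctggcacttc
Tap2, chr20:4652303-4652362, minus strand: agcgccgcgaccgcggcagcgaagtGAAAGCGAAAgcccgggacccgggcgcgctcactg
Tapbp, chr20:4967866-4967925, minus strand: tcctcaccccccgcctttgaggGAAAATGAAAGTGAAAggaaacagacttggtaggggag
Psmb8, chr20:4657001-4657060, minus strand: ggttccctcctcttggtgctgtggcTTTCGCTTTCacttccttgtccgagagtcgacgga
Psmb10, first match, chr19:50743331-50743390, minus strand: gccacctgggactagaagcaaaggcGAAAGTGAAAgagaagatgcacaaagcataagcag
Psmb10, second match, chr19:50743275-50743334, minus strand: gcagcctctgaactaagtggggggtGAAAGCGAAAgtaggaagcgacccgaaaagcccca
Psme2, chr15:33052770-33052829, minus strand: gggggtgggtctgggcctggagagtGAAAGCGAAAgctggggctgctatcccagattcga

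The match began 150 bases before the start in B2m, 121 in Tap1, 53 in Psme2, 41 in Tap2, and 4 in Psmb8, where it runs over the start itself. It began 73 and 17 bases before the start in Psmb10, and 26 and 20 in Tapbp. The match of B2m, Tap2, Tapbp, Psmb10, and Psme2 reads on the strand of the gene, and that of Tap1 and Psmb8 on the opposite strand. Among related genes, the interferon response element core stood in 3 of 31 promoters of class I heavy chains in 3 of 14 of interferon gamma signaling genes, in 2 of 10 of other 20S core subunits, in 1 of 18 of 19S subunits, in 1 of 8 of other activators and assembly factors, and in 1 of 9 of other loading chaperones and peptidases.

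A form of the NF-kappaB site, spelled as GGG, any 2 bases, TT, any base, and CC, stood in 3 of the 9 member promoters, those of B2m, Tap1, and Tapbp, against 5.0% of all promoters and 9 of 31 promoters (29.0%) of class I heavy chains. The gamma activated site TTCNNNGAA stood in 1, that of Psmb8, against 8.87%. No match of one motif overlapped a match of another. The windows of the divergent pair are given in full because the pair moved together on the arrays while their windows differ in these letters. Both Tap1 matches lie between the start sites of Tap1 and Psmb9, farther from the Psmb9 start than its window reaches. The difference thus depends on the length of the window. Capitals mark the interferon response element core and then the NF-kappaB-type site in Tap1, and the windows share 44 bases at their far ends. A match is a description of the letters and does not show that a factor was bound.
Tap1, chr20:4668494-4668793, minus strand: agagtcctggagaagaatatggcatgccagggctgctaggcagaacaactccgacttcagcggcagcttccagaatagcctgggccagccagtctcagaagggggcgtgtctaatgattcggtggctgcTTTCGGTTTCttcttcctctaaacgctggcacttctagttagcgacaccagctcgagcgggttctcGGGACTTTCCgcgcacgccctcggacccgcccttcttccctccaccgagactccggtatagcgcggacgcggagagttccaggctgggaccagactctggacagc
Psmb9, chr20:4668750-4669049, plus strand: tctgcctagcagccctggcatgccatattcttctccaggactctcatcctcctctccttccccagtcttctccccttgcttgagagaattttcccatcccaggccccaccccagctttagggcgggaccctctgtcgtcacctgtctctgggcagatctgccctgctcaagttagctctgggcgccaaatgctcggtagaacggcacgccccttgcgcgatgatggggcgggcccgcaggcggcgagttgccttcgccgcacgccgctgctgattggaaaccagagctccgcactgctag

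The probes that gave the values are 60 bases long. Their coordinates are those of the files (rn4), the accession of each belongs to a RefSeq transcript of the same symbol (9 of 9), and no exon annotation of rn4 was used here. The sequences of the 3 immune catalytic subunits and of the transporter are shown, since they are compared with their partners below.
Psmb8, chr20:4787980-4788039, minus strand: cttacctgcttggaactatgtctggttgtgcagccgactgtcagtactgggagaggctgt
Psmb9, chr20:4806341-4806400, plus strand: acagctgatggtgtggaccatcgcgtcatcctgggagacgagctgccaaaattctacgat
Psmb10, chr19:35777711-35777770, minus strand: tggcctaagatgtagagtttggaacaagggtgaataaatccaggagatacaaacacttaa
Tap1, chr20:4793943-4794002, minus strand: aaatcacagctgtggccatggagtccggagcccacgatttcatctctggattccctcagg
Tap2, chr20:4770555-4770614, minus strand: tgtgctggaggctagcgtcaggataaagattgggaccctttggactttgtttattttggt

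The other probes lie on chromosome 3 from 108932530 to 108932589 (B2m), on chromosome 15 from 33715651 to 33715710 (Psme1) and from 33723033 to 33723182 (Psme2), and on chromosome 20 from 5111712 to 5111882 (Tapbp). Those of Tapbp and Psme2 span 171 and 150 bases of the genome, more than their own length.

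Values are log2 intensities minus the log2 of that array's 75th percentile, so that 0 is the level of that percentile and levels of different probes are not compared. A gene was called when limma gave an unadjusted p under 0.05 with a fold change over 1.5, the thresholds of the study's methods, and the p adjusted over all 23747 tested probes (Benjamini-Hochberg) is given beside the call. Across arrays the 75th percentile was an intensity of 1816 to 3464, and no probe was saturated. DHI 1 stood apart from the other DHI arrays, and calls that rest on it are given with and without it. The 3 DHI arrays were on a slide and scan of their own, so that the slide and the treatment cannot be told apart.

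Results of I/R versus Sham showed that all 9 members rose. The rise ran from 2.55-fold for Psmb10 to 15.7-fold for Psmb8, with a median log2 fold change of 2.74, against a median of -0.10 over all tested probes. The call higher in I/R was made for 20.8% of all tested probes, and 9 of the 9 members had it. With the adjusted p in place of the unadjusted p, 9 of 9 were called, against 16.4% of all probes. On 9 of 9 members the I/R arrays lay above the Sham arrays without overlap, which held for 26.7% of all probes. Between 88.7% and 98.4% of the tested probes had a lower log2 fold change than the members.

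The immune catalytic subunits were described first. Psmb8, which takes the place of Psmb5, read -2.26, -2.29, and -2.37 on the Sham arrays, 2.33, 1.93, and 0.73 on the I/R arrays, and 1.09, -2.84, and -1.53 on the DHI arrays. The lowest I/R value stood well over every Sham value, and DHI 2 lay below all Sham arrays. The log2 fold change in I/R versus Sham was 3.97 (SE 0.89, adjusted p = 0.0396, limma), the largest of the 9.

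Psmb9, which takes the place of Psmb6, read -1.74, -1.94, and -2.11 on the Sham arrays, 2.34, 2.07, and 1.25 on the I/R arrays, and 1.96, -1.94, and -0.94 on the DHI arrays. DHI 1 lay between I/R arrays, and DHI 2 was among the Sham arrays. Psmb9 rose 14.1-fold (log2 fold change 3.82, SE 0.87, adjusted p = 0.0396, limma).

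Psmb10, which takes the place of Psmb7, read 2.33, 2.20, and 2.10 on the Sham arrays, 3.96, 3.68, and 3.05 on the I/R arrays, and 3.54, 2.48, and 2.47 on the DHI arrays. Its rise was the smallest of the 9, at a log2 fold change of 1.35 (SE 0.34, adjusted p = 0.0396, limma), and all DHI arrays lay above all Sham arrays.

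Psme1 and Psme2 encode the alpha and beta subunits of the PA28 activator, a ring that opens the core particle. Psme1 read 2.12, 1.85, and 1.87 on the Sham arrays, 4.48, 4.44, and 3.56 on the I/R arrays, and 3.77, 1.76, and 2.25 on the DHI arrays. Psme2 read 2.19, 1.94, and 2.02 on the Sham arrays, 4.20, 4.04, and 3.29 on the I/R arrays, and 3.65, 2.14, and 2.31 on the DHI arrays. For both genes the DHI 2 value was at or near those of Sham and the DHI 1 value stood among those of I/R. Psme1 rose 4.63-fold (log2 fold change 2.21, SE 0.50) and Psme2 3.47-fold (log2 fold change 1.79, SE 0.41), each with an adjusted p of 0.0396 (limma).

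**Figure D1:**
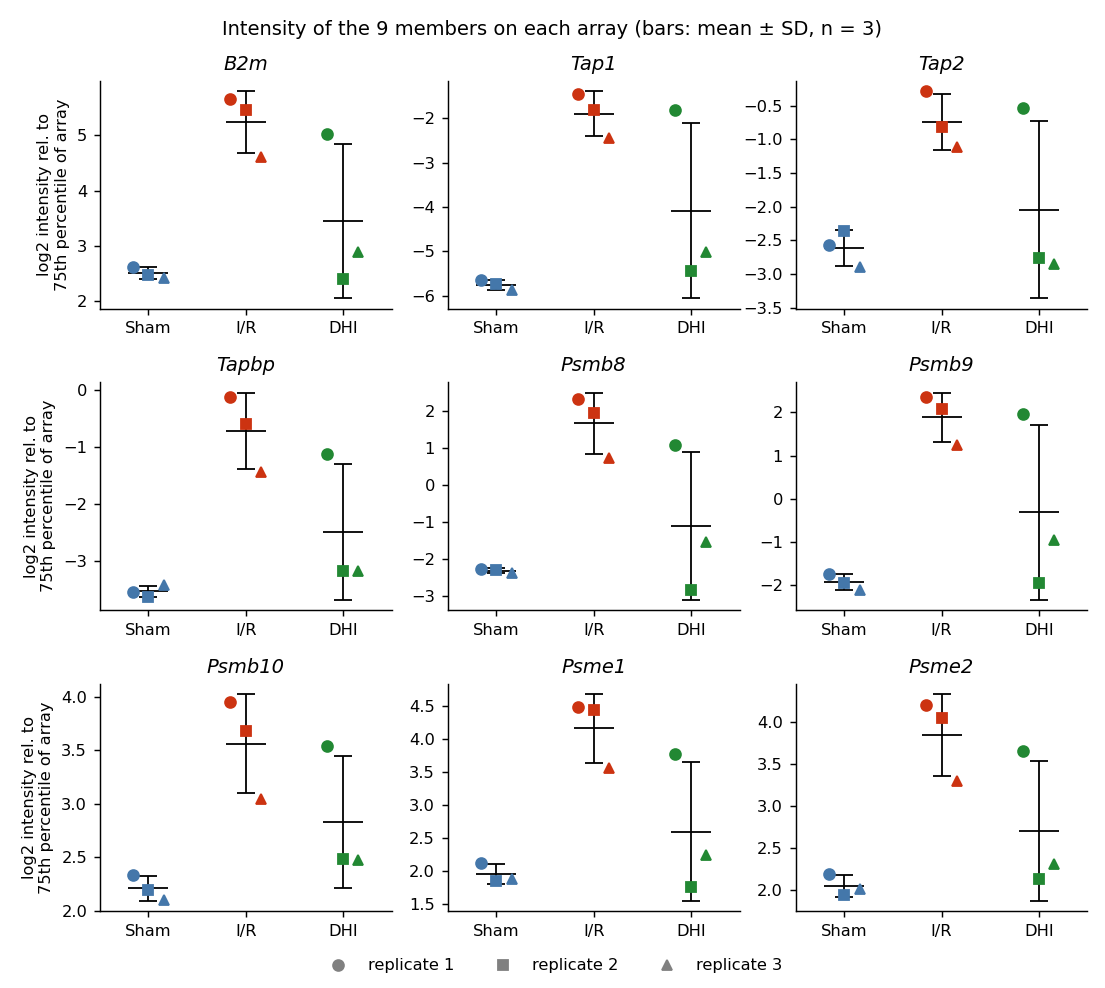
Log2 intensity of each of the 9 members above or below its array's 75th percentile (y axis, a scale of its own in each panel) on the 3 Sham, 3 I/R, and 3 DHI arrays. Points are arrays with their replicate number by shape, and bars are the mean ± SD. In each panel the I/R arrays lie above the Sham arrays, and DHI 1 lies above I/R 3 while DHI 2 and DHI 3 lie below it.

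The transporter followed. Tap1 read -5.66, -5.73, and -5.87 on the Sham arrays, where its intensity was 50.9, 51.5, and 44.9, and -1.44, -1.81, and -2.44 on the I/R arrays, where its intensity was 969, 876, and 640. On the DHI arrays it read -1.82, -5.44, and -5.01. All DHI values were above all Sham values, DHI 2 and DHI 3 by less than 1 on the log2 scale. Tap1 rose 14.5-fold in I/R (log2 fold change 3.86, SE 0.84, adjusted p = 0.0396, limma). With normexp background correction the log2 fold change was 2.79, and it was -1.41 in place of -2.19 in DHI versus I/R.

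Tap2, the other subunit of the transporter, read -2.57, -2.37, and -2.89 on the Sham arrays, -0.29, -0.81, and -1.11 on the I/R arrays, and -0.53, -2.76, and -2.86 on the DHI arrays. DHI 2 and DHI 3 lay within the Sham range, and DHI 1 within that of I/R. The Tap2 rise was smaller, at 3.66-fold (log2 fold change 1.87, SE 0.59), and had the largest adjusted p of the 9, 0.0450 (limma). The difference between the Tap1 and Tap2 rises was not tested.

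Tapasin, which bridges the transporter and the heavy chain, is encoded by Tapbp. It read -3.53, -3.62, and -3.42 on the Sham arrays, -0.11, -0.59, and -1.44 on the I/R arrays, and -1.11, -3.18, and -3.16 on the DHI arrays. DHI 1 again lay among the I/R arrays, and the other DHI arrays lay just above Sham. The rise in I/R was 7.03-fold (log2 fold change 2.81, SE 0.57, adjusted p = 0.0396, limma).

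B2m is the light chain of every class I molecule. It read 2.62, 2.47, and 2.41 on the Sham arrays, 5.65, 5.46, and 4.61 on the I/R arrays, and 5.03, 2.41, and 2.89 on the DHI arrays. Sham values spanned a narrow range, while the DHI arrays reached from just under the lowest Sham value to between those of I/R. The rise in I/R was 6.67-fold (log2 fold change 2.74, SE 0.63, adjusted p = 0.0396, limma).

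The calls at the unadjusted p did not rest on 1 array. All 9 members were called in I/R versus Sham when any 1 of the 9 arrays was left out, and the methods' t-test called all 9 (19.6% of all probes), also after adjustment. The adjusted p of limma lay close to its threshold: 0 of the 9 members passed it when any 1 Sham array, I/R 1 or 2, or DHI 3 was left out, with adjusted p-values of 0.0577 to 0.141. Without scaling between arrays it was passed by 0 of 9 as well (0.0520 to 0.0611).

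**Figure D2:**
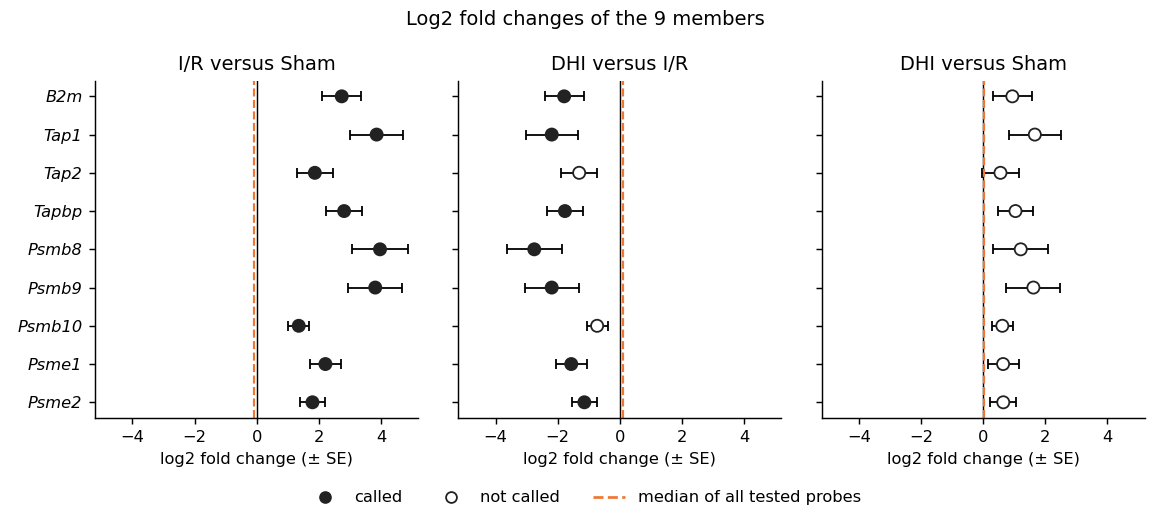
Log2 fold change ± SE (x axis) of each member in the 3 comparisons, from 1 limma model over 9 arrays, with filled points for called genes and the dashed line for the median of all tested probes. All 9 members are called higher in I/R versus Sham, 7 are called lower in DHI versus I/R, and 0 are called in DHI versus Sham.

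The constitutive partners were not called. Psmb5 read 3.26, 3.41, and 3.41 on the Sham arrays, 2.83, 2.81, and 3.11 on the I/R arrays, and 3.05, 3.58, and 3.35 on the DHI arrays, so that its I/R arrays lay under its Sham arrays. In I/R versus Sham the log2 fold change was -0.44 (SE 0.18) for Psmb5, -0.22 (SE 0.12) for Psmb6, and -0.39 (SE 0.15) for Psmb7, none of them past the fold threshold, with adjusted p-values of 0.080, 0.187, and 0.070 (limma). Within each array, the log2 difference of the immune and the constitutive subunit, which cancels any scaling of the array, moved up by 4.41 for Psmb8 and Psmb5, by 4.03 for Psmb9 and Psmb6, and by 1.74 for Psmb10 and Psmb7. The I/R and Sham arrays did not overlap in any of the 3 pairs, and each had p = 0.1 in the two-sided exact permutation test, the smallest that 3 against 3 arrays allow (adjusted over 9 tests, 0.225).

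In DHI versus I/R these differences moved by -3.17, -2.33, and -0.94 (exact permutation p = 0.2 for each, adjusted 0.225), by -4.40, -3.49, and -1.39 without DHI 1, and by -2.17, -1.49, and -0.69 without DHI 2. In DHI versus Sham they were 1.24, 1.70, and 0.80 (exact permutation p = 0.5, 0.2, and 0.1), 0.02, 0.54, and 0.36 without DHI 1, and 2.24, 2.54, and 1.06 without DHI 2. The DHI arrays were far apart, with DHI 1 among the I/R arrays and DHI 2 below every Sham array in the difference of Psmb8 and Psmb5. The exact permutation test cannot decide these DHI differences, because its smallest p with 3 against 3 arrays is 0.1. Psmb10 and Psmb7 reached that smallest value in DHI versus Sham.

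**Figure D3:**
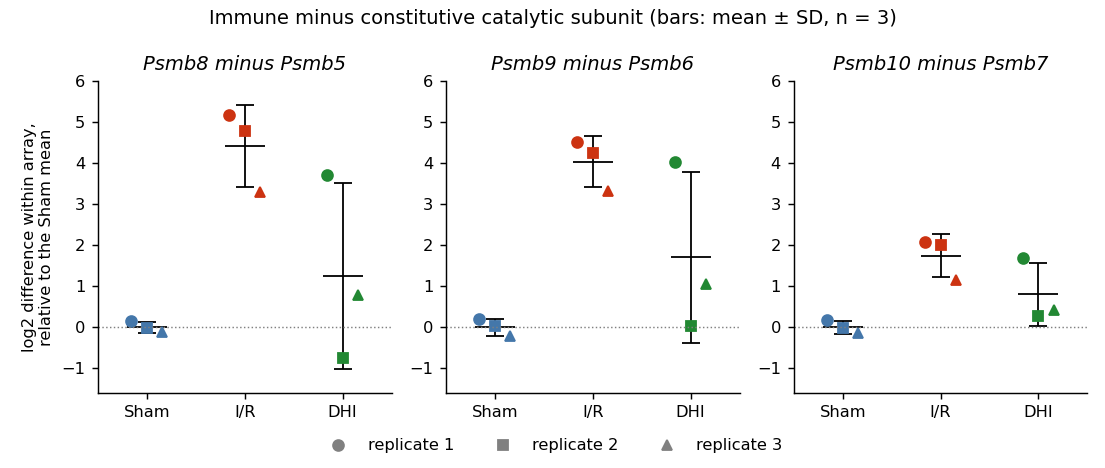
Log2 difference within each array between an immune catalytic subunit and the constitutive subunit it replaces, relative to the mean of the 3 Sham arrays (y axis), for 3 pairs. Points are arrays and bars are the mean ± SD. The I/R arrays lie above Sham in each pair, by a mean of 4.41, 4.03, and 1.74, and the DHI arrays lie apart from each other.

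The rest of the proteasome was set beside the members to see whether the core as a whole had moved. Of the 11 other 20S core subunits, 0 were called in I/R versus Sham, with log2 fold changes of -0.15 to 0.22. Of the 7 measured activators, inhibitor, and assembly factors other than Psme1 and Psme2, 0 were called, among them Psme3, the subunit of another activator (-0.42), and Pomp, the assembly factor used by the immunoproteasome (-0.04). Psmg3 had no probe on the arrays.

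Of the 21 subunits of the 19S regulatory particle, which recognizes tagged proteins, 6 fell and 1 rose, with a median log2 fold change of -0.38. The falls included Psmc5 (-0.85) and Psmc1 (-0.72), ATPases of the base, and Psmd11 (-0.75), a lid subunit. Calls lower were made for 22.3% of all tested probes, and 6 of 21 is close to that share. The rise was that of Psmd9, an assembly chaperone (0.94), whose second, dimmer probe gave 0.16.

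Class I heavy chains, the partners of B2m, rose with the members. By the brightest probe, 24 of 29 tested RT1 class I genes rose and 0 fell in I/R versus Sham (median log2 fold change 3.51). Of all tested probes, 20.8% were called higher and 22.3% lower. Dimmer probes of RT1-M6-1 (-4.45) and RT1-T18 (-0.99) went the opposite way. The largest rises were those of RT1-CE10 (5.09, well above background on 2 of the 3 Sham arrays), RT1-A2 (4.51), RT1-CE12 (3.94), and RT1-N1 (3.92). Signal may be shared between genes of this family that are alike in sequence, and their sequences were not compared here. RT1-M10-1 was well above background on 0 of the 9 arrays. RT1-A2 had an adjusted p of 0.0396, as had RT1-CE12 and RT1-N1 (limma).

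Of 12 other loading chaperones and peptidases, 5 rose and 1 fell in I/R versus Sham, against 20.8% and 22.3% of all probes. Erap1, which trims peptides in the endoplasmic reticulum, rose most (log2 fold change 2.59, SE 0.54), followed by Tapbpl, a tapasin relative that edits peptides (1.87, SE 0.49), and the loading partner Pdia3 (0.95, SE 0.28). Npepps, a cytosolic aminopeptidase, fell (-0.78, SE 0.28). Of the folding chaperones, Calr rose (0.73), while Canx (0.21) and Hspa5 (0.30) were not called.

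Interferon gamma is known to induce the members, and a list of its signaling genes and of class I transactivators was read. Some listed genes, such as Irf9, also act in the response to other interferons, so that the list is not specific to interferon gamma. Of 14 tested genes, 8 rose and 0 fell in I/R versus Sham, against 20.8% and 22.3% of all probes. Irf8 rose by 4.59, Ifngr1, a chain of the receptor, by 2.72, Irf1 by 2.66, and Irf9 by 2.62 on the log2 scale. The second probe of Irf1 gave 2.19. Ifng itself was well above background on 0 of the 9 arrays. Nlrc5, the class I transactivator, had no probe on the arrays, and its partners Rfx5 (-0.08), Rfxap (-0.32), and Rfxank (0.48) were not called.

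**Figure D4:**
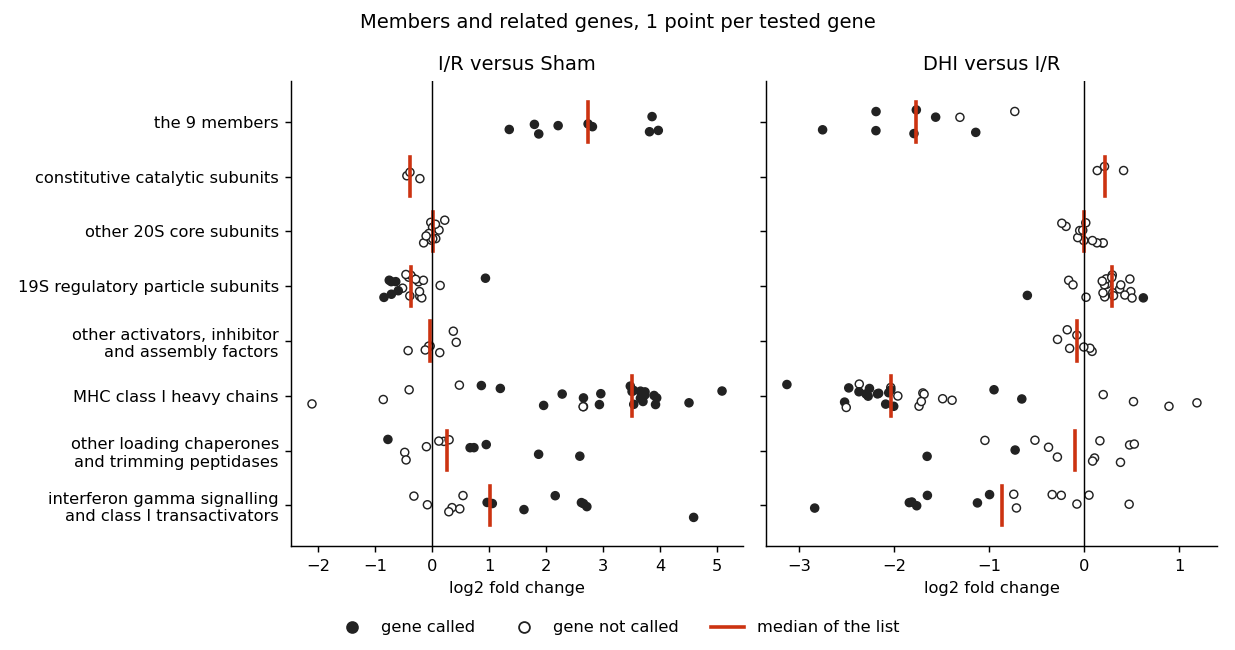
Log2 fold change (x axis) of each tested gene of the members and of 7 related lists, 1 point per gene, with I/R versus Sham at the left and DHI versus I/R at the right. Filled points are called genes and vertical bars are list medians. The medians of the members and the class I heavy chains lie above 0 in I/R versus Sham (medians 2.74 and 3.51) and below 0 in DHI versus I/R (-1.77 and -2.04), while the other 20S core subunits stay within -0.24 to 0.22.

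In DHI versus I/R, which asks whether the treatment altered the injury response, all 9 members had lower means in DHI and 7 of them were called. Because the I/R arrays enter both comparisons, these values and those of I/R versus Sham are not independent. The call lower in DHI was made for 10.5% of all tested probes. Psmb8 was 6.76-fold lower (log2 fold change -2.76, SE 0.89), Psmb9 4.58-fold (-2.19, SE 0.87), Tap1 4.57-fold (-2.19, SE 0.84), B2m 3.47-fold (-1.79, SE 0.63), and Tapbp 3.41-fold (-1.77, SE 0.57). Psme1 was 2.96-fold lower (-1.57, SE 0.50) and Psme2 2.21-fold (-1.14, SE 0.41). Tap2 (-1.31, SE 0.59) and Psmb10 (-0.73, SE 0.34) were not called, with unadjusted p-values of 0.0555 and 0.0626 from limma.

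None of these differences passed adjustment. The adjusted p-values of the 9 members ran from 0.196 to 0.203 (limma), against 7 of 9 at an unadjusted p under 0.05, and 0.00421% of all probes were called lower with the adjusted p. The methods' t-test called 0 of 9 (all probes 0.737%). The I/R and DHI arrays overlapped for 9 of 9 members (groups apart and lower in DHI for 4.02% of all probes).

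The overlap came from DHI 1. On 9 of 9 members it was the highest DHI array and lay above I/R 3, the lowest I/R array, and the same holds for 90.8% of the 4950 probes called higher in I/R, so that it is not particular to the members. DHI 2 and DHI 3 lay below all I/R arrays on 9 of 9 members. Of the same 4950 probes, 5.50% on DHI 2 and 11.4% on DHI 3 lay above the lowest I/R array, so that this is not particular to the members either. On the log2 scale, with the Sham mean as 0% and the I/R mean as 100%, DHI 1 stood at 82.5% to 111% over the 9 members, while DHI 2 and DHI 3 stood between -13.4% and 25.8%.

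Without DHI 1, 9 of 9 members were called lower in DHI versus I/R, against 19.1% of all probes, and 9 passed adjustment, against 17.3%, with log2 fold changes of -3.85 to -1.09 and adjusted p-values of 0.00144 to 0.0162 (limma). No I/R and DHI arrays then overlapped for 9 of 9, against 26.2% of all probes. Fewer members than 7 were called without DHI 2 (2), DHI 3 (2), I/R 1 (1, Psme1), I/R 2 (3), Sham 1 (6), or Sham 2 (6), while 8 were called without I/R 3 and 7 without Sham 3. For these settings the share of all probes called was not counted, so that the counts have no background beside them.

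In DHI versus Sham the means of 9 of 9 members were higher in DHI, by a median log2 fold change of 0.94 (0.56 to 1.67) against 0.02 over all probes. The call higher was made for 2.52% of all probes and for 0 of the 9 members, with 0 at an unadjusted p under 0.05 and adjusted p-values of 0.709 to 0.728 (limma). The methods' t-test called 0 as well (1.12% of all probes higher). The arrays did not overlap for Tap1, Tapbp, and Psmb10, against 10.3% of all probes. Without DHI 1 the median was 0.18, and Tap2 was at -0.20. Without DHI 2, 4 members were called (B2m, Tap1, Psmb8, and Psmb9), and the share of all probes called in that setting was not counted.

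The related lists were read next. In DHI versus I/R, 15 of 29 class I heavy chains and 7 of 14 interferon gamma pathway genes fell and 0 rose. The call lower was made for 10.5% of all probes. Of 12 loading chaperones and peptidases, 2 fell (Erap1 at -1.66 and Pdia3 at -0.73) and 0 rose, which is near that share. Of the 3 constitutive catalytic subunits and the 11 other core subunits, 0 were called. Of the 19S subunits, Psmc5 rose (0.62), as did 11.5% of all probes, and Psmd9 fell (-0.60). Without DHI 1, 27 heavy chains, 9 interferon gamma pathway genes, 6 chaperones and peptidases, and 6 subunits of the 19S particle were called (26.2% of all probes higher and 19.1% lower). In DHI versus Sham, 6 of 29 heavy chains were called higher (2.52% of all probes), 3 without DHI 1 (2.55%), and 0 genes of the other lists were called.

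The members varied together from array to array. Over the 9 arrays Pearson's r between members was 0.953 to 0.997 (median 0.985, 36 pairs), and between their deviations from the group means 0.905 to 0.992 (median 0.959). The SD of the members was 0.61 to 2.02 in DHI and 0.06 to 0.27 in Sham, so that DHI 1 weighs heavily in these deviations. Their r was not computed without DHI 1 or over all genes. The 9 arrays share the group differences and the same scaling, and 2111 of 15575 genes had r over 0.95 with the mean profile of the members, so that the likeness is not particular to them. The highest values, each r = 0.999 over 9 arrays, were those of RT1-T18 and RT1-M6-1, class I heavy chains, Laptm5, a lysosomal protein of blood cells, Casp1, the inflammatory caspase, Tnfaip8l2, a regulator of immune responses, Fut7, a fucosyltransferase of selectin ligands, Grn, the precursor of granulins, Sumf2, Gmfg, an actin regulator of immune cells, and Lrch4. Their order is not firm: 6 of the 10 stayed in the first 10 without DHI 1 and 1 under quantile normalization. A second probe of RT1-T18 (log2 fold change -0.99 in I/R versus Sham) and of RT1-M6-1 (-4.45) went the opposite way from the first.

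Markers of immune cells moved with the members. Of 8 markers of microglia and macrophages, 7 rose in I/R versus Sham, with Cd68, a lysosomal protein of phagocytes, at a log2 fold change of 6.69 and Ptprc, the common leukocyte antigen, at 4.68, while Cx3cr1 was not called (adjusted p = 0.156, limma). In DHI versus I/R, 6 of 8 fell. Of all tested probes, 20.8% were called higher in I/R versus Sham and 10.5% lower in DHI versus I/R. Their summed level, in multiples of the 75th percentile, was 8.84 to 10.8 on the Sham arrays, 114.8, 89.5, and 39.9 on I/R 1 to 3, and 60.2, 12.1, and 12.5 on DHI 1 to 3. The summed level of the 9 members was at most 20.9 on the Sham arrays, 118.6, 104.6, and 59.3 on the I/R arrays, and 78.0, 19.4, and 23.8 on the DHI arrays. This sum follows mostly its brightest probes, those of B2m, Psmb10, Psme1, and Psme2, while dim ones such as Tap1 add little. The arrays high in these markers were those high in the members, and the part of the markers in the members' differences was not tested.

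**Figure D5:**
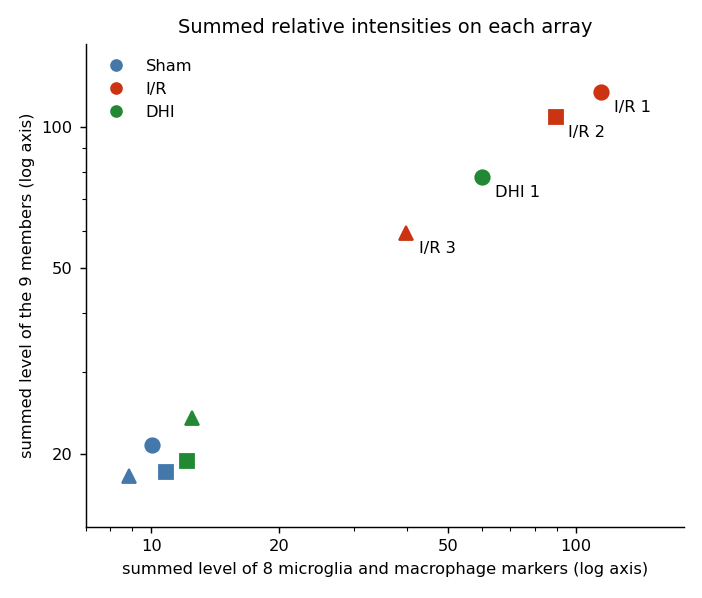
Summed level, in multiples of the array's 75th percentile, of the 9 members (y axis, log scale) and of 8 markers of microglia and macrophages (x axis, log scale), 1 point per array. Shapes are replicate numbers. The sum of the members follows mostly its brightest probes. I/R 1 to 3 and DHI 1 lie at the upper right (members 59.3 to 118.6), and the Sham arrays with DHI 2 and DHI 3 at the lower left (at most 23.8).

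Of 9 tested markers of T and NK cells, 7 rose in I/R (20.8% of all probes) and 5 fell in DHI versus I/R (10.5%). The T cell markers Cd3e (log2 fold change 1.15) and Lck (-0.03) were not called in I/R versus Sham. The summed level was 0.247 to 0.274 on the Sham arrays, 0.765 to 1.32 on the I/R arrays, and 1.02, 0.268, and 0.283 on DHI 1 to 3. Cd8a was well above background on 0 Sham arrays and on all 3 I/R arrays. Of 4 markers of B cells, Ms4a1 was well above background on 0 arrays, and the 2 tested were not called. Of 6 markers of neurons, 6 fell in I/R (22.3% of all probes) and 5 rose in DHI versus I/R (11.5%). Their summed level was 43.3 to 55.6 on the Sham arrays, 3.23, 8.91, and 20.3 on I/R 1 to 3, and 12.4, 43.8, and 35.6 on DHI 1 to 3.

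Of 6 markers each, 4 of astrocytes rose and 1 fell in I/R, 0 of oligodendrocytes were called, and 2 of endothelial cells rose, against 20.8% of all probes called higher. In DHI versus I/R, 2 of 6 astrocyte markers fell (10.5% of all probes), Gfap, an intermediate filament, 4.01-fold and Aqp4, a water channel, 2.16-fold. The other 4 were not called. Of these, Slc1a2 had a log2 fold change of 0.81 and was the marker that fell in I/R versus Sham (-1.12). The oligodendrocyte marker Mobp rose 2.16-fold, 1 of 6 (11.5% of all probes higher), and 0 endothelial markers were called. The summed level of the astrocyte markers was 38.5 to 41.9 on the Sham arrays, 79.3, 76.7, and 59.6 on I/R 1 to 3, and 63.6, 39.6, and 44.4 on DHI 1 to 3, so that it was high on the arrays high in the members. All 3 red blood cell markers fell in I/R versus Sham and rose in DHI versus I/R, and 0 of them passed the adjusted p (limma). Their summed level differed widely within groups. It was 3.75, 29.7, and 15.1 on Sham 1 to 3, 2.27 to 3.34 on the I/R arrays, and 7.33, 38.9, and 22.6 on DHI 1 to 3. Of 3 tested choroid plexus markers 2 rose in DHI versus Sham and 1 in I/R versus Sham, with a median summed level of 0.682 on the Sham arrays (highest 1.04), 1.97 on the I/R arrays (highest 93.2), and 74.4 on the DHI arrays (highest 135.7). The part of these markers in the members' differences was not tested.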

How the data were processed

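For each array the authors deposited Feature Extraction output (Agilent Feature Extraction 10.7.1.1, per the submitters' processing notes). As deposited, the processed intensity of each spot is corrected for background by that software but unscaled. The log2 values in the deposited table of the series served as an alternative.

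Control spots and 392 to 725 outlier spots per array were dropped, log2 intensities were set against the array's 75th percentile, and replicate spots were averaged. Of 30367 probes, 23747 were tested, those with at least 50% of their spots well above background on every array of some group. The test was limma 3.58.1 (R 4.3.3), in 1 model of 9 arrays with 6 residual degrees of freedom. The brightest of several probes stood for a gene. Genes named were the 9 members, Psmb5, Psmb6, Psmb7, Nlrc5, Irf1, up to 4 called genes per list with the largest change in I/R versus Sham, and the 10 genes most like the members. Psme3, Pomp, Psmg3, Calr, Canx, Hspa5, RT1-M10-1, Ifng, Rfx5, Rfxap, Rfxank, Cx3cr1, Cd3e, Cd8a, Lck, Mobp, and Ms4a1 were named after their values were seen. A further gene under this rule is not reported here. The members and lists were chosen with earlier results of these data known. The scripts were tested on simulated data. Replicates are separate rats per the methods, and their number limits the precision.

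Alternatives were no scaling, quantile normalization, the series table, background correction by normexp (offset 50), other filters on dim probes (none, or all 9 arrays), a fit restricted to the compared groups, array weights, a block for the replicate number, the methods' t-test, the mean over probes of a gene, and leaving out each array.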

Additional observations from a re-analysis of the deposited data

How the results depend on the processing

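The 9 members were called higher in I/R versus Sham under every alternative run. The members that passed the adjusted p there went from 9 to 0 without scaling, and ranged from 0 to 9 when 1 array was left out. In DHI versus I/R the members called, 7 in the model over all arrays, were 9 without scaling, 9 with array weights, 8 with normexp background correction (Psmb10 added), 4 in a model of only those groups, and 0 by the methods' t-test, and ranged from 1 to 9 when 1 array was left out. The members that passed the adjusted p there were 9 with array weights and ranged from 0 to 9 when 1 array was left out. Related genes called, 26 of 97, were 45 without scaling, 15 in the model of only those groups, 48 with array weights, and 2 by the methods' t-test, with 6 to 48 when 1 array was left out. In DHI versus Sham the members called were 1 with normexp background correction (Tap1), 2 with array weights (Tap1 and Psmb9), of which 1 passed the adjusted p, and ranged from 0 to 4 when 1 array was left out. Related genes called there, 6, were 3 without scaling, 12 with array weights, and 0 by the methods' t-test, with 2 to 15 when 1 array was left out. The log2 fold change of Tap2 in DHI versus Sham turned from 0.56 to -0.18 with array weights and to -0.20 without DHI 1, and ranged from -0.20 to 0.97 when 1 array was left out. The causes were not tested. The share of all probes called was counted only for the main model, the methods' t-test, and the omission of DHI 1. Counts of members and related genes under the other alternatives thus have no background beside them. No scaling moved the median of all probes in DHI versus I/R from 0.10 to -0.36.

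Whether replicate numbers pair the arrays was not tested. Same-numbered deviations correlated from -0.29 to 0.15 in I/R versus Sham, from -0.34 to 0.48 in DHI versus I/R, and from 0.02 to 0.30 in DHI versus Sham. In these comparisons 2, 3, and 3 of 6 arrays correlated best with their own number. With the number as a block, 9 members were called in I/R versus Sham, 9 in DHI versus I/R, and 1 in DHI versus Sham (Psmb10).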
